A study of Homo sapiens with 12 samples.

Results

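The genes described here are 36 that carry glucose into the cell and through glycolysis, the pentose phosphate pathway and the first steps of glycogen synthesis, among the 19907 genes measured. They were chosen by symbol from a list of the pathway, which was made with earlier results of these data known, and all 36 were found in the 12 libraries and passed the filter on low values. RNA was sequenced from MDA-MB-231, a human triple-negative breast cancer line of mesenchymal character. The cells carried a glucocorticoid receptor of wild type (WT-GR) or one with the serine-to-alanine change S134A (S134A-GR), and the comparison asks how this residue bears on the answer to the synthetic glucocorticoid dexamethasone (Dex). All groups were starved of serum for 18 h in IMEM medium with 1% DCC. They then received vehicle or 1 µM Dex for 6 h, which gave WT-GR vehicle, WT-GR Dex, S134A-GR vehicle and S134A-GR Dex with 3 libraries in each of the 4 groups. The labels do not say how the receptors were expressed, whether each genotype is 1 clone, or whether the libraries of a group are separate cultures. The p-values therefore reflect the spread among libraries, and that spread could be technical only. A gene count cannot check a point mutation, so the genotype labels were not tested by these data.

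Glycolysis splits glucose into pyruvate. Transporters of the SLC2A (GLUT) family admit glucose, hexokinases trap it as glucose 6-phosphate, phosphofructokinase commits it, and the later enzymes recover energy and hand pyruvate to lactate dehydrogenase or to the mitochondrion. Many of these genes are known targets of the hypoxia-inducible factors, and glucocorticoids are known to restrain glucose uptake in several peripheral tissues.

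Values are normalized read counts, that is, reads per gene divided by a size factor of the library. The total depth recovered from the files was 56.4 to 100.6 M reads per library (M for mega), while the labels state a mean of 40 M. Even numbers made up 58.2 to 67.5% of the counts from 1 to 20, so reads may not be independent molecules. WT-GR Dex replicates 2 and 3 stood apart, since 193 and 210 of their genes had a single read where the other 10 libraries had 352 to 409 such genes. The WT-GR Dex group had the widest spread, its median SD over genes being 0.148 in log2 units against 0.065 to 0.094 elsewhere. The gene names in the Dex files were shifted against their values and were restored by line order, so every Dex value rests on that repair. The markers of the line were present, with VIM, CD44, CAV1, AXL and ZEB1 summing to 586400 to 676900 per library. ESR1 lay between 0 and 5.66, CDH1 between 0 and 17.1 and ERBB2 between 8864 and 12000. In bulk RNA of this kind, fewer cells of a state and less RNA per cell cannot be told apart.

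Per kilobase of exon, the level of the members spanned the whole range from housekeeping to trace. GAPDH was the most abundant in every group, at 333000 normalized counts per kb in WT-GR vehicle, and ENO1 and PKM followed it at 199000 and 188000. Among the transporters SLC2A1 (GLUT1) led with 11200 per kb, SLC2A3 (GLUT3) had 1970 and SLC2A12 (GLUT12) 414. SLC16A1 (MCT1), a lactate transporter, was at 18.5 per kb, while SLC16A3 (MCT4), which exports lactate from glycolytic cells, was at 10800. SLC2A10 was the least abundant, at 2.21 per kb in WT-GR vehicle and 0 in both S134A-GR groups. Together the 36 genes took 3.41 to 3.58% of all normalized counts in WT-GR vehicle and 3.3 to 3.52% in WT-GR Dex. Their share was 3.07 to 3.09% in S134A-GR vehicle and 2.78 to 2.87% in S134A-GR Dex. The S134A-GR libraries thus lay below the WT-GR libraries in either treatment, and within S134A-GR cells the Dex libraries lay below vehicle. Most of this share came from the steps from GAPDH to PKM, at 2.24 to 2.35% in WT-GR vehicle. In vehicle the steps from hexokinase to TPI1 overlapped between genotypes (0.529 to 0.558% in WT-GR, 0.524 to 0.532% in S134A-GR). The PFKFB genes were slightly higher in S134A-GR vehicle, and the remaining parts of the list were lower.

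RefSeq promoter windows (GRCh38.p14), each with 250 bases before a start site and 50 after it, were matched for 33 of the 36 genes, as 63 windows. The stretches below show the motif that 3 of the 6 genes lower with Dex in both genotypes carry next to a start site, beside a gene of the same pathway that carries it but did not pass the test with Dex, and the gene with the largest fall, which lacks it. Capitals mark ACGTG, the core of the hypoxia-response element, on either strand. The palindrome CACGTG, an E-box, holds ACGTG on both strands and counts as 2 overlapping matches. Letters are printed 5′ to 3′ along the gene, only where GENCODE v29 has no exon. The exception is ENO2, where a 30-base site inside an annotated exon is given.
HK2 chr2:74834920-74835169 plus strand: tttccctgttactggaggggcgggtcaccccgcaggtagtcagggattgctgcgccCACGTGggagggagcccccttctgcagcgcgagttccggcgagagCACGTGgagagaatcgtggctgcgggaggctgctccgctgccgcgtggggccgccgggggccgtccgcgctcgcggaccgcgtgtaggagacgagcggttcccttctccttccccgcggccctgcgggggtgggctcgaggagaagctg
PFKFB3 chr10:6202694-6202865 plus strand: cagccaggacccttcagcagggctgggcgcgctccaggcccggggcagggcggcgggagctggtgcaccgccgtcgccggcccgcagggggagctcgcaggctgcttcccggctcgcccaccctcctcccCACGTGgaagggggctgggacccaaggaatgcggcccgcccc
ENO2 chr12:6914450-6914479 plus strand: acccgcgctcgtACGTGcgcctccgccggc
LDHA chr11:18394313-18394387 plus strand: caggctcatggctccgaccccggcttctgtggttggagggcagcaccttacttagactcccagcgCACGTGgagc
SLC2A12 chr6:134052637-134052874 minus strand: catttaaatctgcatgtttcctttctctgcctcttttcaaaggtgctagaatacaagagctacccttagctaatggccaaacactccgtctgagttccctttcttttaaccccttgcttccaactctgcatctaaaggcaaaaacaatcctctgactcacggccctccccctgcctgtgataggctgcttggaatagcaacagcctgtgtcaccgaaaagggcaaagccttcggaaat
The HK2 and PFKFB3 stretches lie within the bounds of their genes, upstream of an internal start site, and those of LDHA and SLC2A12 lie just outside the annotated gene. ACGTG was found in 21 of the 63 member windows (33.3%) against 21.4% of all 35116 windows. Windows of the same gene can overlap and share a site, as for PFKM. By gene, 17 of the 33 matched members held it, and 3 of the 6 lower with Dex in both genotypes. It is therefore not read as a mark of the genes that fell. CACGTG was found in 6 member windows (9.52%) against 7.26% of all. The glucocorticoid-response consensus, searched on both strands with its variable positions open to any base, was in 0 member windows and in 0.39% of all. SLC2A1, SLC2A12 and PFKFB4 held no ACGTG in their windows. These matches are descriptions of letters in short windows and say nothing of binding.

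With Dex, 14 of the 36 genes passed the test in WT-GR cells (limma, adjusted p under 0.05 over all genes), 7 higher and 7 lower, which is 38.9% against 27.9% of all 15957 genes tested. In S134A-GR cells 11 passed, 2 higher and 9 lower, which is 30.6% against 15.7% of all genes (7.99% higher and 7.76% lower). For the 36 genes the median log2 change was 0.03 in WT-GR cells. It was -0.06 for S134A-GR, and the median of all genes was -0.02 in both. SLC2A1, SLC2A12, HK2, PFKFB3, PFKFB4 and ENO2 fell in both genotypes, which is 85.7% of the WT-GR falls and 66.7% of the S134A-GR falls. PFKP rose in both, which is 14.3% of the 7 WT-GR rises and 1 of the 2 S134A-GR rises. Groups did not overlap for 7 higher and 7 lower genes in WT-GR cells, against 16.7% and 18.3% of all genes (35.1% together), and for 4 higher and 17 lower genes in S134A-GR cells, against 18.2% and 20.4% (38.6% together). The split between rises and falls in WT-GR cells depended on the scaling: with library size only, 4 rose and 9 fell. Of the calls over all genes, 32.4% were then higher, against 49.7% in the main fit. Leaving out WT-GR Dex replicate 1 gave 9 calls in WT-GR cells, which is 25.0% against 22.6% of all genes in that fit. Leaving out WT-GR Dex replicates 2 and 3 together left 1 library in that group, so no count is given for that fit. With only the WT-GR libraries in the fit 9 passed, which is 25.0% against 15.6% of all genes in that fit. HK1, SLC2A6, TPI1, TKT and TALDO1 lost their calls there (limma adjusted p from 0.0699 to 0.182).

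**Figure D1:**
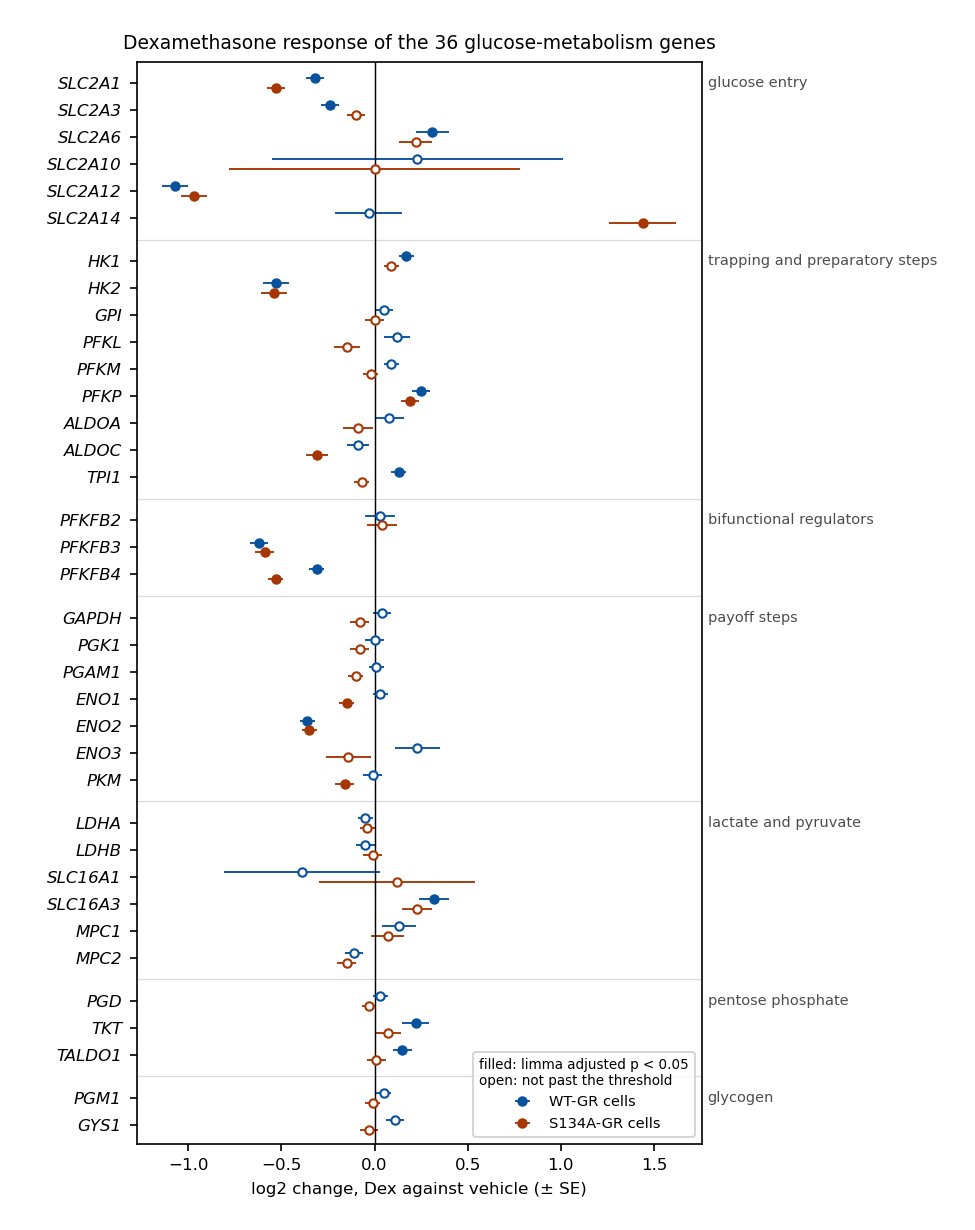
Log2 change with Dex (x axis, ± SE from limma) for each of the 36 genes (y axis, grouped by role) in WT-GR and S134A-GR cells, 3 libraries per group. Filled points passed the adjusted threshold. SLC2A12 lies farthest to the left in both genotypes, at -1.07 and -0.97, and SLC2A14 farthest to the right in S134A-GR cells, at 1.44.

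Among the transporters the largest fall was that of SLC2A12, a glucose carrier of the plasma membrane and internal vesicles (chromosome 6, 133988697 to 134052636, GRCh38). Its normalized counts were 1800, 1941 and 1808 (vehicle) against 797.3, 897.4 and 958 (Dex) in the WT-GR libraries and 1830, 1872 and 1890 (vehicle) against 1001, 943.4 and 915.5 (Dex) in the S134A-GR libraries. Every Dex library lay below every vehicle library, and the genotypes overlapped within each treatment. The mean changed by -52.2% in WT-GR cells (log2 change -1.07 ± 0.07 SE, limma adjusted p = 1.33e-07) and by -48.9% in S134A-GR cells (-0.97 ± 0.07, limma adjusted p = 3.77e-07). The difference between the responses was 0.1, with a 95% interval from -0.13 to 0.32.

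SLC2A1, the main basal glucose carrier of most cancer lines (chromosome 1, 42925375 to 42959176), was the most abundant transporter. It was counted at 43980, 44260 and 45140 (vehicle) against 38300, 35110 and 33470 (Dex) in the WT-GR libraries and 35420, 35980 and 34970 (vehicle) against 23630, 25390 and 24530 (Dex) in the S134A-GR libraries. The 4 groups formed 3 levels, since WT-GR cells with Dex overlapped S134A-GR cells without it. The mean changed by -19.9% in WT-GR cells (log2 -0.32, limma adjusted p = 0.000249) and by -30.9% in S134A-GR cells (-0.53, limma adjusted p = 2e-06). The difference of -0.21 between the responses had limma adjusted p = 0.184 and an unadjusted 95% interval from -0.36 to -0.06.

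SLC2A3, a high-affinity carrier, was at 7683, 8009 and 7393 (vehicle) against 6363, 6162 and 7005 (Dex) in the WT-GR libraries and 5382, 5491 and 5354 (vehicle) against 5197, 4875 and 5081 (Dex) in the S134A-GR libraries. It fell with Dex in WT-GR cells (log2 -0.24, limma adjusted p = 0.00438). S134A-GR cells showed -0.1 (limma adjusted p = 0.274). Their difference did not pass (0.14, limma adjusted p = 0.335). SLC2A14 is a duplicate of SLC2A3 with nearly the same sequence, next to it on chromosome 12, so reads can be split between them and its values are uncertain. It was at 84.73, 115.2 and 98.98 (vehicle) against 111, 101.8 and 80.35 (Dex) in the WT-GR libraries and 96.14, 68.93 and 83.74 (vehicle) against 227.2, 221.4 and 227.9 (Dex) in the S134A-GR libraries. Only the S134A-GR Dex libraries stood apart, 2.72-fold above their vehicle (log2 1.44 ± 0.18 SE, limma adjusted p = 6.08e-05). SLC2A6, a lysosomal hexose carrier, rose by 0.31 in WT-GR cells (limma adjusted p = 0.0235, groups overlapping) and was 0.22 higher in S134A-GR cells without passing (limma adjusted p = 0.14). The SLC2A6 call was also lost without WT-GR vehicle replicate 1 or 2 or Dex replicate 1 or 2.

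Trapping and the preparatory steps moved in both directions. HK2, the inducible hexokinase that binds mitochondria (chromosome 2, 74833981 to 74893359), was at 12680, 11570 and 10490 (vehicle) against 8379, 7359 and 8366 (Dex) in the WT-GR libraries and 8422, 8388 and 8609 (vehicle) against 5814, 6017 and 5670 (Dex) in the S134A-GR libraries. The groups formed 4 separate levels by library, although WT-GR cells with Dex, at 8379 at most, reached close to the lowest value of untreated S134A-GR cells, 8388. The mean changed by -30.6% in WT-GR (log2 -0.53, limma adjusted p = 6.13e-05) and by -31.2% in S134A-GR cells (-0.54, limma adjusted p = 4.95e-05). HK1, the constitutive hexokinase, was at 35390, 34280 and 34370 (vehicle) against 40620, 37120 and 39010 (Dex) in the WT-GR libraries and 36280, 36350 and 37430 (vehicle) against 38210, 39420 and 39670 (Dex) in the S134A-GR libraries. It rose in WT-GR cells by 0.17 (limma adjusted p = 0.00817) and was 0.09 higher in S134A-GR cells (limma adjusted p = 0.163), with no overlap in either genotype.

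PFKP, the platelet-type phosphofructokinase and the most abundant of the 3 isoforms per kb, rose in both genotypes. Its counts were 64170, 63470 and 64490 (vehicle) against 82160, 75510 and 70780 (Dex) in the WT-GR libraries and 70940, 72300 and 69940 (vehicle) against 76660, 84010 and 83210 (Dex) in the S134A-GR libraries. The log2 changes were 0.25 and 0.19 (limma adjusted p = 0.00367 and 0.0224), and the S134A-GR call was lost without S134A-GR vehicle replicate 1 or 3 or Dex replicate 2 or 3, where it was 0.17 to 0.19. The liver isoform PFKL was at 18020, 18450 and 18830 (vehicle) against 22270, 20210 and 17840 (Dex) in the WT-GR libraries and 16140, 16250 and 16350 (vehicle) against 13400, 15420 and 15300 (Dex) in the S134A-GR libraries, with log2 changes of 0.12 and -0.15 that did not pass. Among the WT-GR Dex libraries, replicate 3 alone lay below the WT-GR vehicle values, and the S134A-GR Dex values lay below those of all other groups. PFKM, the muscle isoform, and GPI, which converts glucose 6-phosphate to fructose 6-phosphate, did not pass, with log2 changes between -0.02 and 0.09.

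Of the aldolases, which split the 6-carbon sugar, ALDOC fell in S134A-GR cells by 0.31 (limma adjusted p = 0.00142), and WT-GR cells showed -0.09 (limma adjusted p = 0.271). ALDOC was at 20870, 22380 and 23020 (vehicle) against 22550, 19570 and 20330 (Dex) in the WT-GR libraries and 14730, 14700 and 14340 (vehicle) against 11160, 12040 and 12110 (Dex) in the S134A-GR libraries. ALDOA was at 144900, 144200 and 154500 (vehicle) against 179300, 157600 and 135600 (Dex) in the WT-GR libraries and 133000, 128500 and 124500 (vehicle) against 111800, 126000 and 124800 (Dex) in the S134A-GR libraries. The 3 WT-GR Dex values of ALDOA spanned both sides of vehicle, and neither change passed (0.08 and -0.09). TPI1, which interconverts the triose products, rose by 0.13 in WT-GR cells (limma adjusted p = 0.0436), a call lost with library size only (0.06), and was -0.07 in S134A-GR cells. The TPI1 call was also lost without 8 of the 12 libraries, each left out alone, the kept ones being WT-GR vehicle replicate 3, WT-GR Dex replicates 2 and 3 and S134A-GR Dex replicate 1.

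The bifunctional enzymes make and degrade fructose 2,6-bisphosphate, the strongest activator of phosphofructokinase, and both abundant members fell. PFKFB3, the isoform whose kinase activity most exceeds its phosphatase activity (chromosome 10, 6144934 to 6254644), was at 16410, 16160 and 15730 (vehicle) against 11500, 9874 and 10080 (Dex) in the WT-GR libraries and 17320, 16900 and 17040 (vehicle) against 11300, 11300 and 11460 (Dex) in the S134A-GR libraries. All Dex libraries lay below all vehicle libraries. The means changed by -34.9% (log2 -0.62, limma adjusted p = 8.89e-07) and -33.5% (-0.59, limma adjusted p = 1.46e-06), and the difference of 0.03 had a 95% interval from -0.12 to 0.19. PFKFB4, an isoform first described in testis, was at 12070, 12740 and 12610 (vehicle) against 10250, 10240 and 9756 (Dex) in the WT-GR libraries and 10430, 11270 and 10520 (vehicle) against 7270, 7603 and 7487 (Dex) in the S134A-GR libraries. Its log2 changes were -0.31 for WT-GR and -0.53 for S134A-GR (limma adjusted p = 0.000185 and 1e-06), where Dex gave the lowest values of the 4 groups. PFKFB2, the cardiac isoform, had changes of 0.03 and 0.04 and passed in neither genotype.

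**Figure D2:**
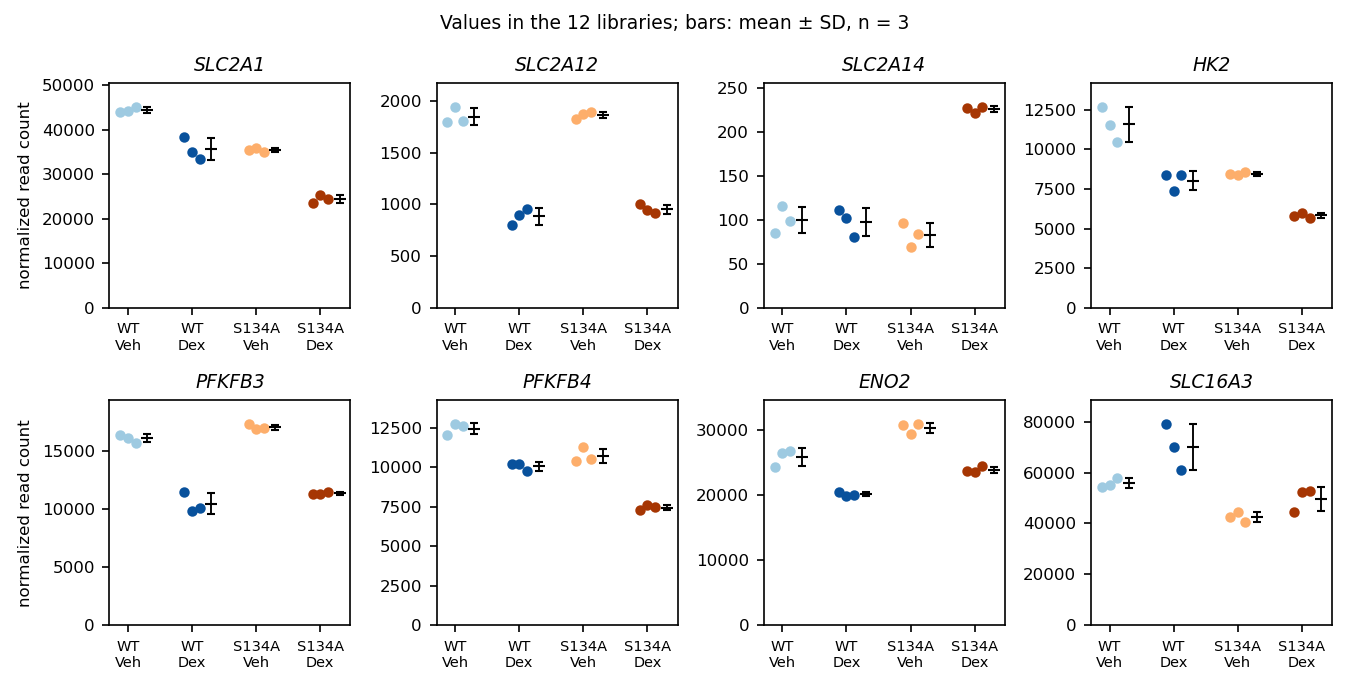
Normalized read counts (y axis) of SLC2A1, SLC2A12, SLC2A14, HK2, PFKFB3, PFKFB4, ENO2 and SLC16A3 in the 12 libraries (points), with the mean ± SD of each group of 3 (x axis). SLC2A12 and PFKFB3 fell with Dex to overlapping ranges in both genotypes, SLC2A1, HK2 and PFKFB4 were lowest in S134A-GR cells with Dex, and SLC2A14 stood above 220 in S134A-GR Dex only.

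In the payoff steps ENO2, the neuronal-type enolase, was the gene that fell in both genotypes (chromosome 12, 6913745 to 6923698). It was counted at 24310, 26450 and 26860 (vehicle) against 20460, 19880 and 19970 (Dex) in the WT-GR libraries and 30750, 29380 and 30900 (vehicle) against 23720, 23510 and 24410 (Dex) in the S134A-GR libraries. Log2 changes were -0.36 and -0.35 (limma adjusted p = 3.48e-05 and 5.58e-05). ENO1, the abundant general enolase, was at 474900, 477500 and 486100 (vehicle) against 514300, 482500 and 473300 (Dex) in the WT-GR libraries and 346400, 347600 and 347300 (vehicle) against 308600, 315300 and 313500 (Dex) in the S134A-GR libraries. It fell in S134A-GR cells (-0.15, limma adjusted p = 0.0224) and was 0.03 higher in WT-GR cells without passing, and PKM, the pyruvate kinase of most tissues, had changes of -0.16 (limma adjusted p = 0.042) and -0.01. The S134A-GR calls of ENO1 and PKM were lost with no filter on low values and without any 1 of the 6 S134A-GR libraries, and that of PKM also without WT-GR vehicle replicate 1 or 2 or WT-GR Dex replicate 2. GAPDH, PGK1, PGAM1 and ENO3 passed in neither genotype, although all 7 genes of the payoff steps had a negative change in S134A-GR cells, from -0.35 to -0.08.

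At the exit of the pathway SLC16A3 rose in WT-GR cells. It was at 54270, 54950 and 58000 (vehicle) against 78980, 70030 and 61170 (Dex) in the WT-GR libraries and 42380, 44390 and 40550 (vehicle) against 44300, 52220 and 52730 (Dex) in the S134A-GR libraries. The rise was 25.7% in WT-GR cells (log2 0.32, limma adjusted p = 0.0122) and 0.23 in S134A-GR cells without passing (limma adjusted p = 0.0959). The WT-GR call was lost without WT-GR Dex replicate 1, at 0.23. SLC16A1 stayed at trace level, at 81.47, 76.09 and 102.1 (vehicle) against 80.24, 27.95 and 123.1 (Dex) in the WT-GR libraries and 97.08, 49.67 and 59.69 (vehicle) against 77.14, 73.51 and 65.93 (Dex) in the S134A-GR libraries, and its groups overlapped throughout. LDHA, the lactate dehydrogenase subunit that favours lactate, was at 216800, 224700 and 224800 (vehicle) against 206300, 214600 and 220700 (Dex) in the WT-GR libraries and 150900, 156200 and 152800 (vehicle) against 150200, 150600 and 148000 (Dex) in the S134A-GR libraries. LDHB, the subunit typical of lactate-using tissues, was at 96980, 98290 and 99880 (vehicle) against 89280, 95280 and 101600 (Dex) in the WT-GR libraries and 92570, 94190 and 93820 (vehicle) against 95570, 91170 and 91640 (Dex) in the S134A-GR libraries. Neither subunit passed with Dex, with log2 changes from -0.05 to -0.01, nor did MPC1 and MPC2, which form the mitochondrial pyruvate carrier (-0.15 to 0.13).

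In the pentose phosphate pathway, which yields NADPH and ribose, TKT (transketolase) and TALDO1 (transaldolase) rose in WT-GR cells, by 0.22 and 0.15 (limma adjusted p = 0.0255 and 0.0387). Both calls were lost with library size only (0.16 and 0.09) and without WT-GR vehicle replicate 1 or 2 or WT-GR Dex replicate 1, and that of TALDO1 also without WT-GR Dex replicate 2, any S134A-GR vehicle library or S134A-GR Dex replicate 2 or 3. In S134A-GR cells the changes were 0.07 and 0.01, and neither the difference for TKT (-0.15) nor that for TALDO1 (-0.14) passed. PGD, the NADPH-forming phosphogluconate dehydrogenase, was 0.03 and -0.03. PGM1 and GYS1, which lead glucose 6-phosphate towards glycogen, did not pass with Dex, with changes from -0.03 to 0.11.

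When the responses of both genotypes were compared directly, 1 of the 36 passed, SLC2A14, which is 2.78% against 0.414% of all genes, 0.238% higher and 0.175% lower. Its response was 1.47 higher in S134A-GR cells on the log2 scale (± 0.26 SE, limma adjusted p = 0.0256). SLC2A14 lost this call without WT-GR vehicle replicate 2 or 3, S134A-GR vehicle replicate 2 or 3 or any 1 of the S134A-GR Dex libraries. At an unadjusted limma p under 0.05 there were 8 genes, 1 positive and 7 negative. Over all 36 the difference was negative for 27 and positive for 9, with a median of -0.08 against 0 for all genes. Among the 45 tested genes of the further list described below, 11 met that cut, 5 positive and 6 negative. Differences on that list were positive for 27 and negative for 17. Neither the share of all genes at that cut nor their split by sign was counted, so no trend of the pathway is read here. Of the WT-GR Dex libraries that stood apart, leaving out replicate 2 alone left the count of the 36 past the adjusted threshold at 1. Without WT-GR Dex replicate 3, 5 genes passed, SLC2A14 and also SLC2A1, PFKL, PFKFB4 and ENO1, which is 13.9% of the members against 10.1% of all genes in that fit. Without replicates 2 and 3 together 1 library, replicate 1, stood for the WT-GR Dex group, so no count is given for that fit. There the difference was -0.32 for SLC2A1, -0.42 for PFKL and -0.24 for PFKFB4. Replicate 1 had 56.9 M recovered reads, against 93.8 M in replicate 2 and 93.0 M in replicate 3. It also held the highest WT-GR Dex value of each of these genes, so these differences are not read as better estimates.

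Between the genotypes more of the pathway differed. SLC2A10 was at 0 in all S134A-GR libraries and passed the filter through the WT-GR libraries only, so it had to be lower and is left out of these counts. In vehicle 22 of the other 35 genes passed, 5 higher and 17 lower in S134A-GR cells, which is 62.9% against 50.5% of all genes. With Dex 25 passed, 5 higher and 20 lower, which is 71.4% against 49.7%. By direction, 26.7% and 26.3% of all genes were lower in these comparisons, and 23.8% and 23.4% were higher. The median difference of the 35 was -0.19 in vehicle and -0.23 with Dex, against 0.01 for all genes. The 17 genes lower in vehicle were also lower with Dex, which is 85.0% of the 20, and PFKM, ENO2, ENO3 and MPC1 were higher in both, which is 80.0% of either list. The scaling moved the split. With library size only and SLC2A10 included, which had to be lower, 8 genes were higher and 15 lower in vehicle. With Dex 9 were higher and 18 lower. Of the calls over all genes, 59.6% were then higher in vehicle and 64.9% with Dex, against 47.2% and 47.0% in the main fit. The median of all genes shifted to 0.09 in vehicle and 0.11 with Dex. Groups did not overlap for 7 higher and 20 lower genes of the 35 in vehicle, against 31.5% and 32.7% of all (64.3% together), and for 4 higher and 20 lower with Dex, against 25.3% and 27.1% (52.4% together).

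**Figure D3:**
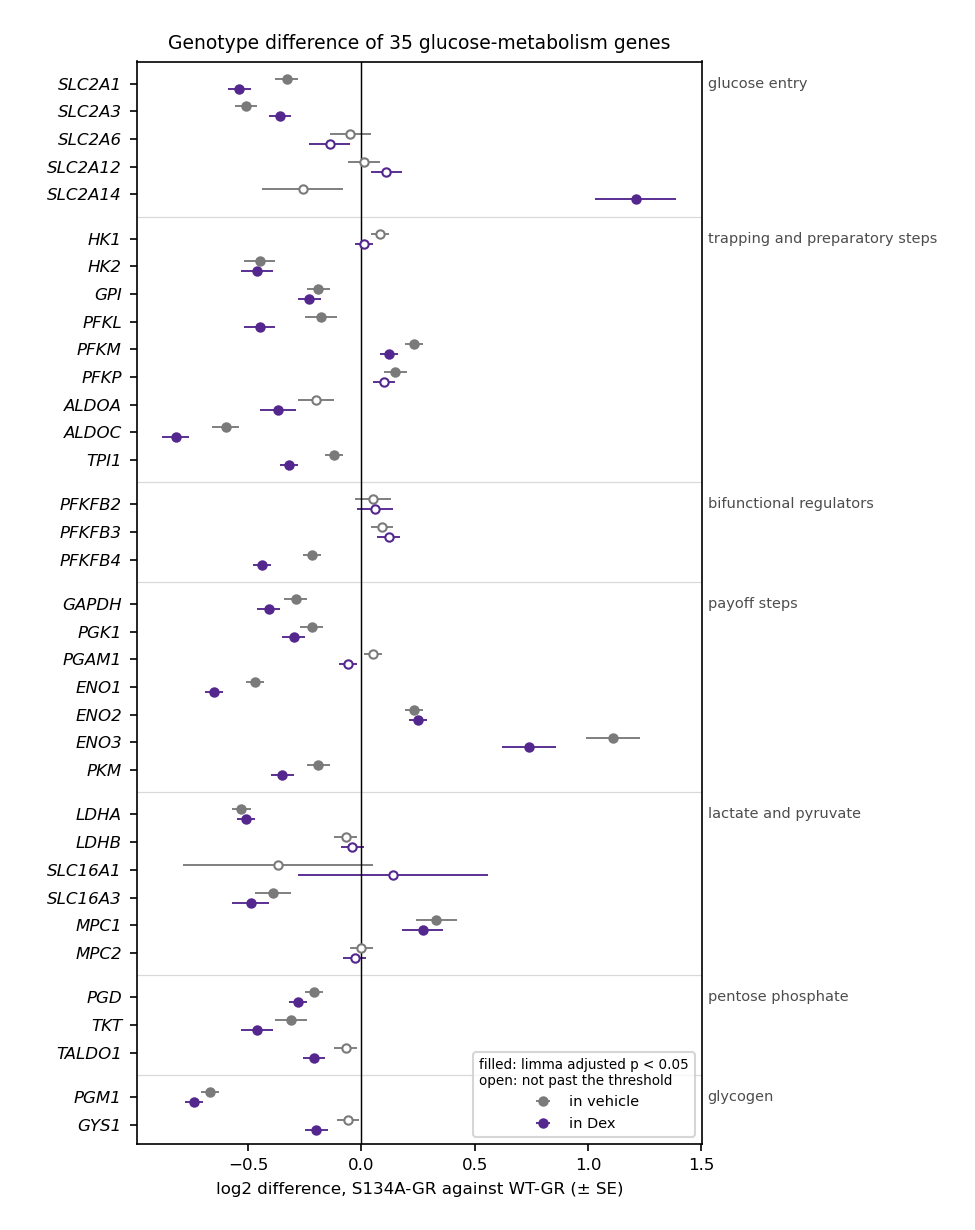
Log2 difference of S134A-GR from WT-GR cells (x axis, ± SE from limma) in vehicle and in Dex for 35 of the genes (y axis, grouped by role), 3 libraries per group. SLC2A10, at 0 in all S134A-GR libraries, is left out. Filled points passed the adjusted threshold. PGM1 and ALDOC lie farthest to the left and ENO3 lies to the right in both treatments.

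Among the transporters SLC2A10 (GLUT10) was at 13.04, 14.8 and 4.21 in WT-GR vehicle and 20.49, 15.97 and 4.07 in WT-GR Dex, which are 4 to 16 reads per library, and at 0 in all 6 S134A-GR libraries. With a floor of 3 reads per library it was at least 3.51-fold lower in vehicle and at least 4.26-fold lower with Dex. SLC2A3 was lower in S134A-GR cells, with differences of -0.51 in vehicle and -0.36 with Dex, and so was SLC2A1, with -0.33 and -0.54 (limma adjusted p at most 8.08e-05 in these 4). SLC2A12 did not pass, with 0.01 and 0.11, and SLC2A14 was higher with Dex (1.21, limma adjusted p = 0.00011) and did not pass in vehicle (-0.26, limma adjusted p = 0.253).

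Trapping and the preparatory steps were mostly lower. ALDOC had differences of -0.6 and -0.82 (limma adjusted p = 1.66e-06 and 9.69e-08), and its highest S134A-GR value of 14730 lay below its lowest WT-GR value of 19570. HK2 was lower, with -0.45 and -0.46 (limma adjusted p = 9.51e-05 and 7.83e-05), while HK1 did not pass in either treatment (0.08 and 0.01). The phosphofructokinase isoforms parted. PFKL was lower (-0.18 in vehicle, limma adjusted p = 0.0467, and -0.45 with Dex, limma adjusted p = 0.00016), PFKM was higher (0.23 and 0.12, limma adjusted p = 0.000233 and 0.0182), and PFKP was higher in vehicle (0.15, limma adjusted p = 0.0295) and did not pass with Dex (0.1, limma adjusted p = 0.148). The vehicle call of PFKL was lost without any 1 vehicle library, WT-GR Dex replicate 2 or S134A-GR Dex replicate 2 or 3, and that of PFKP without any vehicle library other than WT-GR replicate 3. The Dex call of PFKM was lost without WT-GR Dex replicate 2 or S134A-GR Dex replicate 3, and was 0.05 without both WT-GR Dex replicates 2 and 3. ALDOA did not pass in vehicle (-0.2, limma adjusted p = 0.0554) and was lower with Dex (-0.37, limma adjusted p = 0.00183). GPI had differences of -0.19 and -0.23 and TPI1 of -0.12 and -0.32, all past the threshold. In vehicle the GPI call was lost without S134A-GR replicate 2 and the TPI1 call without any vehicle library other than WT-GR replicate 1.

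Of the bifunctional enzymes PFKFB4 was lower, with -0.22 and -0.44 (limma adjusted p = 0.00108 and 3.33e-06), and PFKFB3 and PFKFB2 did not pass. In the payoff steps the abundant enzymes were lower and the minor enolases higher. ENO1 was lower, its mean differing by -27.6% in vehicle and -36.2% with Dex (log2 -0.47 and -0.65, limma adjusted p = 9.5e-07 and 5.14e-08), and GAPDH, PGK1 and PKM had differences from -0.41 to -0.19. ENO3, the muscle-type enolase, was at 369.9, 391 and 446.5 (vehicle) against 423.4, 579 and 423.1 (Dex) in the WT-GR libraries and 902, 812 and 890 (vehicle) against 739.7, 777.1 and 851.4 (Dex) in the S134A-GR libraries. The S134A-GR values were 2.16-fold and 1.66-fold those of WT-GR cells (limma adjusted p = 7.36e-06 and 0.000232). ENO2 was higher by 0.23 and 0.25 in S134A-GR cells, so that genotype and Dex moved it in opposite directions. PGAM1 did not pass in any comparison.

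LDHA was lower in S134A-GR cells, with differences of -31.0% in vehicle and -30.0% with Dex (log2 -0.53 and -0.51, limma adjusted p = 1.6e-07 and 2.38e-07), the highest S134A-GR value being 156200 and the lowest WT-GR value 206300. LDHB, the partner subunit, had differences of -0.07 and -0.04 that did not pass. SLC16A3 was lower as well, with differences of -0.39 and -0.49. MPC1 was higher by 0.33 and 0.27 while MPC2 did not pass, and the Dex call of MPC1 was lost without Dex replicate 2 or 3 of either genotype. In the pentose phosphate pathway TKT (-0.31 and -0.46) and PGD (-0.21 and -0.28) were lower in both treatments, and TALDO1 was lower with Dex (-0.21, limma adjusted p = 0.00392) and did not pass in vehicle (-0.07, limma adjusted p = 0.287). PGM1, which interconverts glucose 1-phosphate and glucose 6-phosphate (chromosome 1, 63593276 to 63660245), was at 18140, 18420 and 18290 (vehicle) against 19690, 18370 and 18910 (Dex) in the WT-GR libraries and 11660, 11440 and 11340 (vehicle) against 11140, 11430 and 11620 (Dex) in the S134A-GR libraries. The difference was -0.67 and -0.74 (limma adjusted p = 1.56e-08 and 7.66e-09), and the S134A-GR values did not approach the WT-GR values in any library. GYS1, glycogen synthase, was -0.06 in vehicle and -0.2 with Dex (limma adjusted p = 0.00562). With library size only, the genotype calls of GPI in both treatments, of TPI1 and PFKL in vehicle and of TALDO1 and GYS1 with Dex were lost, and that of PFKL in vehicle also with TMM scaling. With only the compared groups in the fit, MPC1 and PFKM lost theirs with Dex.

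Markers of other cell types differed between the genotypes in both directions. The 4 luminal markers summed to 101200 to 108800 in WT-GR vehicle and 95860 to 101900 in S134A-GR vehicle, and to 114900 to 134800 and 98230 to 108700 with Dex. The 3 endothelial markers summed to 1885 to 2032 and 1447 to 1572 in vehicle, and to 2847 to 3399 and 2099 to 2340 with Dex. Within these sums CDH5 had means of 186.6 in WT-GR and 19.01 in S134A-GR vehicle. With Dex the mean of PECAM1 rose and that of VWF fell in both genotypes. The summed fibroblast markers went the other way, at 1021 to 1387 and 2117 to 2377 in vehicle, and 833.5 to 1164 and 1731 to 1851 with Dex. Nearly all of that sum was COL1A1, with means of 1153 in WT-GR and 2271 in S134A-GR vehicle. COL3A1 and DCN stayed near 0, reaching at most 19.96 and 14 in any library. The 2 blood markers found, of 4, summed to 29.59 to 37.48 and 8.11 to 16.93 in vehicle. EPCAM, an epithelial adhesion molecule, had means of 1024 in WT-GR and 378 in S134A-GR vehicle, while ERBB2 had 8891 and 10490. The luminal markers were split in vehicle. Means were higher in S134A-GR cells for the luminal factor GATA3 (808 and 1093) and for KRT8 (63030 and 65430). They were lower for KRT18 (35950 and 31140) and KRT19 (4158 and 836.8). No marker of these lists was at 0 in every library. Their part in the genotype differences was not tested.

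Ratios between isoenzymes within a library do not depend on the size factor. For 8 pairs and 4 comparisons, 22 of 32 comparisons had groups that did not overlap. The share over other pairs of genes was not counted, so this number is not read as particular to these pairs. The exact permutation test with 3 against 3 cannot go below p = 0.1, and the lowest adjusted value was 0.145, so none can pass. The log2 ratio of HK2 to HK1 was -1.59 ± 0.12 (SD) in WT-GR vehicle, -2.28 ± 0.06 in WT-GR Dex, -2.11 ± 0.01 in S134A-GR vehicle and -2.74 ± 0.05 in S134A-GR Dex, lower with Dex and lower in S134A-GR cells. LDHA to LDHB was 1.17 ± 0.02 and 1.17 ± 0.04 in WT-GR vehicle and Dex and 0.71 ± 0.01 and 0.69 ± 0.04 in S134A-GR cells, so it separated the genotypes and overlapped between treatments. ENO2 to ENO1 was -4.21 ± 0.06 and -4.61 ± 0.04 in WT-GR cells and -3.52 ± 0.04 and -3.71 ± 0.03 in S134A-GR cells, with all 4 groups apart.

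PFKFB3 to PFKFB4 was 0.37 ± 0.07 without and 0.05 ± 0.11 with Dex in WT-GR cells, with no overlap, and in S134A-GR cells it was 0.67 ± 0.08 and 0.61 ± 0.03, overlapping. PFKP to PFKL went from 1.8 ± 0.03 to 1.92 ± 0.06 in WT-GR and from 2.13 ± 0.03 to 2.47 ± 0.04 in S134A-GR cells, higher with Dex and with S134A-GR. ALDOC to ALDOA was -2.74 ± 0.05 and -2.91 ± 0.15 in WT-GR cells, overlapping, and -3.14 ± 0.03 and -3.36 ± 0.03 in S134A-GR cells. SLC2A1 to SLC2A3 was 2.53 ± 0.07 and 2.45 ± 0.17 in WT-GR cells, overlapping, and 2.71 ± 0.01 and 2.28 ± 0.1 in S134A-GR cells. SLC16A3 to SLC16A1 overlapped in every comparison, with means from 9.3 to 10.04.

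**Figure D4:**
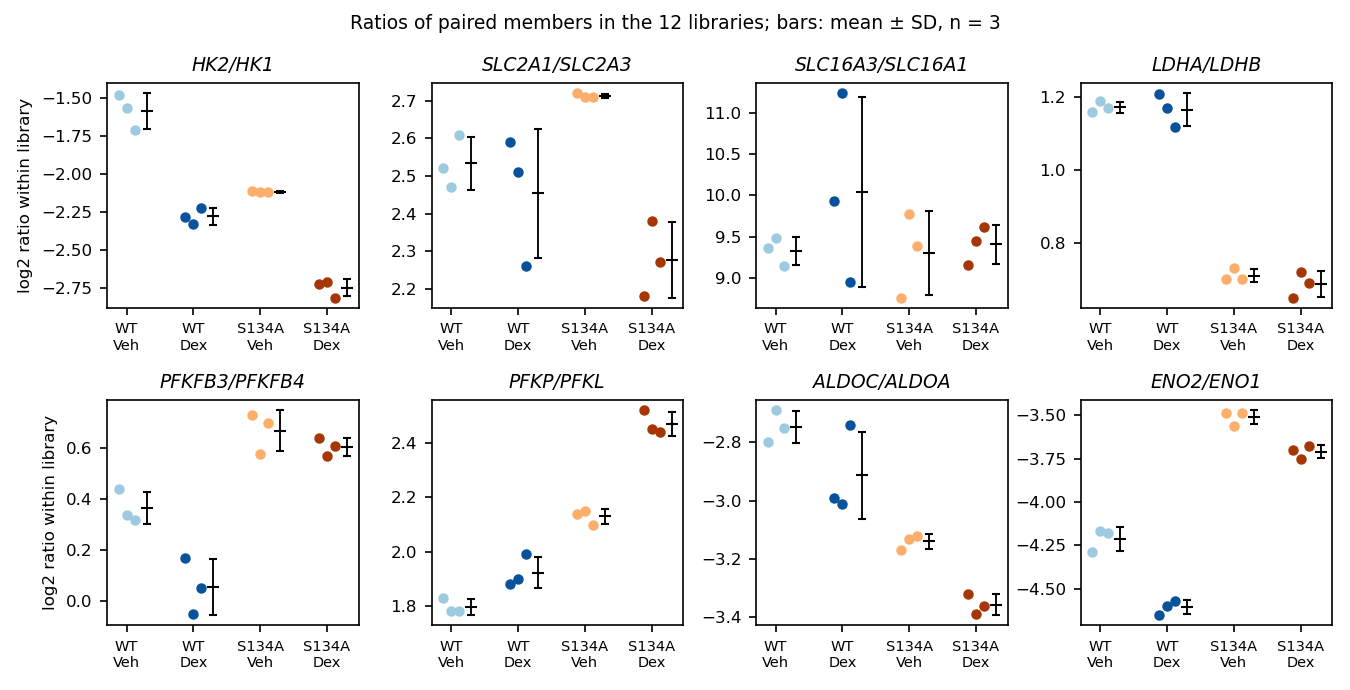
Log2 ratio of 2 isoenzymes or carriers within each library (y axis) in the 4 groups of 3 libraries (x axis) for 8 pairs, with points for libraries and bars for the mean ± SD. LDHA to LDHB separates the genotypes at 1.17 and about 0.7, HK2 to HK1 steps down with Dex and with S134A-GR, and SLC16A3 to SLC16A1 overlaps throughout.

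A further list of 61 genes of glucose handling, made of rarer isoenzymes, pentose phosphate, glycogen and gluconeogenic enzymes, was found for 57 genes, of which 45 were tested. With Dex 12 passed in WT-GR cells, 6 in each direction (26.7%), and 8 in S134A-GR cells, 5 higher and 3 lower (17.8%), so these shares were close to those of all genes.  PHKA1, a subunit of the kinase that activates glycogen breakdown, rose by 0.75 and 0.87 (limma adjusted p = 5.25e-08 and 1.15e-08), PYGB, glycogen phosphorylase, rose by 0.55 and 0.5, and GFPT2, which starts hexosamine synthesis, fell by 0.53 and 0.52. HKDC1, a hexokinase-like gene, rose by 0.8 in WT-GR cells (limma adjusted p = 0.00101). For the difference of responses limma and edgeR with TMM scaling called 0 of the 45 and DESeq2 called 2. Of all genes these tools called 0.414, 0.382 and 3.16%. An unadjusted limma p under 0.05 was met by 11, a cut at which the share of all genes was not counted. The fit without WT-GR Dex replicates 2 and 3 left 1 library in that group, so no count is given for it.

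Between genotypes 25 of the 45 passed in vehicle, 9 higher and 16 lower, which is 55.6% against 50.5% of all genes. With Dex 27 passed, 7 higher and 20 lower, which is 60.0% against 49.7%. GYG2 and FBP1 passed the filter on low values through the WT-GR libraries only, so they had to be lower. Both are still in these counts and shares, which are therefore not read as a result about the list. GYG2, a glycogenin that primes glycogen, had means of 99.5 and 96.99 in WT-GR vehicle and Dex and reached at most 5.28 in any S134A-GR library. FBP1, the gluconeogenic fructose bisphosphatase, had means of 74.69 and 62.68 in WT-GR cells and at most 7.54 in any S134A-GR library. SLC16A8, a lactate carrier, was higher in S134A-GR vehicle (log2 1.1), with 9 to 42 reads per library. Its Dex means were close, at 27.37 for WT-GR and 29.88 for S134A-GR. GAPDHS, the testis-type isoenzyme of GAPDH, had positive genotype differences in both treatments, 0.88 in vehicle and 1.23 with Dex. Dex itself did not raise it. The GAPDHS means were 144.3 (vehicle) and 107.8 (Dex) for WT-GR, and 269.6 and 248.6 for S134A-GR.

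Of 9 further genes looked at as regulators of metabolism or receptor targets, 6 rose with Dex in both genotypes and 1, VEGFA, fell in both. Not all are described, and these values stand as background. PDK4, which restrains the entry of pyruvate into the citrate cycle, rose by 2.28 and 2.18. TXNIP, an inhibitor of glucose uptake, rose with Dex by 1.31 and 0.94, and the difference between these did not pass (-0.38, limma adjusted p = 0.0634). The hypoxia-inducible VEGFA fell by 1.02 and 1.05 with Dex and was lower in S134A-GR cells, with -0.98 and -1.01. CA9, also hypoxia-inducible, was lower in S134A-GR cells, with -0.88 and -1.2, and with Dex it fell in S134A-GR cells (-0.27, limma adjusted p = 0.00799, against 0.05 in WT-GR cells, with limma adjusted p = 0.139 for the difference). DDIT4, a hypoxia and glucocorticoid target, rose with Dex by 0.91 and 0.71 and was lower in S134A-GR cells, with -0.8 and -0.99. HIF1A itself did not pass with Dex (-0.07 and 0.11) and was lower in S134A-GR cells, with -0.34 and -0.16 (limma adjusted p = 0.000237 and 0.0294). Any part of these genes in the values of the 36 was not tested.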

How the data were processed

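Per the labels' protocols, TruSeq libraries were sequenced with paired 75-base reads on a HiSeq2500. The submitters' processing notes name DESeq2 1.22.2, featureCounts, Subread, FastQC 0.11.7 and the hg38 build, and the aligner is not given in the sources used here. The authors deposited 1 normalized signal value per gene and library, a read count over a size factor: each value was a whole multiple of 1 read within 0.01 reads, for 100% of values. Dex files held 26485 names for 19907 values, so 6578 names had no value, and names were taken from the vehicle files by line order (r with the vehicle mean 0.982 to 0.989). The test was limma 3.58.1 (R 4.3.3) with its trend option on log2(value + 1), a scale that understates changes of low genes, over 15957 genes with at least 10 in at least 3 libraries, two-sided, Benjamini-Hochberg adjusted at 0.05, with all 12 libraries in 1 fit. Alternatives were edgeR 4.0.16 and DESeq2 1.42.0 on recovered reads, pseudocounts, filters, library weights, left-out libraries and the names as deposited. Fits were tested on simulated data. Members and lists were chosen with earlier results of these data known. Values per library are given for up to 6 called genes with the largest change in each comparison, for calls of the difference of responses and for isoenzyme pairs. The further list is named by its 3 largest called changes per comparison. Levels per kb use the union of exons in the GENCODE v29 basic set.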

Additional observations from a re-analysis of the deposited data

Results flagged for a closer look

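The Dex response of SLC2A14 differed between the genotypes by the test of the difference itself, by 1.47 on the log2 scale (limma adjusted p = 0.0256, 95% interval 0.92 to 2.03). All 3 S134A-GR Dex libraries lay above all 9 others. Over the alternatives the difference ranged from 1.28 to 1.59 and lost its call in 8 of them. SLC2A14 shares nearly all its sequence with SLC2A3, and whether reads were split between them was not tested.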

How the results depend on the processing

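With the repaired names, no called gene reversed its direction in any alternative run, and single genes were not followed with the names as deposited. Of the calls, 8 of 14 for Dex in WT-GR cells, 8 of 11 in S134A-GR cells, 0 of 1 for the difference of responses, 18 of 23 for genotype in vehicle and 20 of 26 with Dex were kept in every setting with the repaired names. SLC2A10, not tested under the filter of at least 50, is not among those kept, and the 7 WT-GR falls were among those kept. The WT-GR Dex count of 14 was 9 with only the compared groups in the fit (25.0% against 15.6% of all genes). It was 29 of 30 with the names as deposited (96.7% against 95.7%). The S134A-GR count of 11 was 19 with library weights (52.8% against 32.1% of all genes) and 29 of 30 with the names as deposited (96.7% against 95.5%). The count of 1 for the difference was 3 with DESeq2 (8.33% against 3.16% of all genes) and 8 with library weights (22.2% against 17.9%). It was 15 of 30 with the names as deposited, where 33.3% of all genes passed. The genotype counts of 23 and 26, SLC2A10 included, were 10 and 15 of 30 with the names as deposited, where 30.1% and 28.2% of all genes passed. Leaving out 1 library gave 9 to 16, 8 to 13, 0 to 5, 19 to 25 and 24 to 28 in this order. The shares of all genes in those fits were 18.6 to 38.2%, 11.3 to 19.1%, 0.163 to 10.1%, 42.5 to 55.2% and 42.8 to 51.2%. The replicate numbers paired no libraries, with correlations from -0.09 to 0.06 between libraries of the same number. With the replicate number as a block the counts were 12, 9, 0, 21 and 26, where 23.7, 13.4, 0.157, 47.6 and 46.9% of all genes passed. Over all genes, edgeR with library size only moved the share of calls that were higher from 49.7 to 32.4% for Dex in WT-GR cells and from 47.0 to 64.9% for genotype with Dex. For all moved counts the cause was not tested. At 4 to 16 reads, SLC2A10 was limited by depth.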
